A study of Mus musculus with 16 samples.

Results

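The 10 genes followed here through whole mouse kidneys at embryonic day 17.5 are known as abundant transcripts of neutrophils. They are S100a8 and S100a9, the stefin A genes Stfa1, Stfa2, Stfa3, Stfa2l1 and Cstdc5, and the granule genes Ngp, Camp and Ltf. Every non-control probe whose RefSeq accession belongs to one of these genes was taken, which gave 10 probes, 1 per gene, of 56605 probes on the array, and 10 of 22911 genes with a named probe. The genes were chosen with their values in these arrays already known, so all differences between genotypes for them are descriptions, without a test. The 16 samples fall into 4 genotypes of strain C57BL/6 with 4 arrays each, and the labels name them biological replicates. Control kidneys were wild type. The Ezh2-KO group had a homozygous conditional deletion of Ezh2 in Six2-positive nephron progenitors and wild-type Ezh1. The Ezh1-het group carried the same Ezh2 deletion plus germline loss of 1 Ezh1 allele, and the double-KO group the same deletion plus homozygous germline loss of Ezh1. Ezh2 and Ezh1 encode the alternative histone H3 methyltransferases of Polycomb repressive complex 2. The Ezh2 deletion is thus restricted to 1 lineage of the kidney, whereas the Ezh1 loss is germline and so present in every cell, blood cells included. Titles of the control samples name a kidney pair, whereas those of the mutants name only a sample. Sources used here do not give the Cre transgene, the sex of the embryos or whether kidneys of several embryos were pooled.

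S100A8 and S100A9 are small calcium-binding proteins that pair as calprotectin, which fills the cytosol of neutrophils, withholds zinc and manganese from microbes and signals to Toll-like receptors when released. Stefins A are cytosolic inhibitors of papain-like cysteine cathepsins, and rodents carry an expanded cluster of these genes that is active in myeloid cells. Ngp, Camp and Ltf encode the neutrophilic granule protein, cathelicidin and lactoferrin, cargo of the secondary granules that a neutrophil makes as it matures. At this age blood cells form in the liver, and neutrophils reach the kidney with the blood.

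The genes lie in 3 places. S100a8 and S100a9 are direct neighbours on chromosome 3 in the RefSeq annotation (GRCm38.p6), with no other gene between them. The 5 stefin genes share a cluster on chromosome 16 in which 6 other protein-coding genes, all but Gm7260 named as stefins or cystatins (Cstdc4, Csta3, Csta2, Cstdc3 and Cstdc6), are interspersed. Camp, Ngp and Ltf lie on chromosome 9 with 28 other protein-coding genes between the outermost of them. The 250 bases before the annotated start are shown for 6 members, which sit on 2 chromosomes. Any link of these sequences to the pattern over the arrays was not tested. Sequences come from RefSeq (GRCm38.p6), each 5′ to 3′ on the gene's own strand, and capitals mark every match to TTGCNNAA, a relaxed form of the C/EBP consensus, or to GAGGAA, a core of PU.1 sites, on either strand. The windows are chr3:90668821-90669070 (plus strand), chr3:90695722-90695971 (minus strand), chr16:36276898-36277147 (plus strand), chr16:36367571-36367820 (minus strand), chr16:36408364-36408613 (minus strand) and chr16:36455393-36455642 (minus strand).
S100a8: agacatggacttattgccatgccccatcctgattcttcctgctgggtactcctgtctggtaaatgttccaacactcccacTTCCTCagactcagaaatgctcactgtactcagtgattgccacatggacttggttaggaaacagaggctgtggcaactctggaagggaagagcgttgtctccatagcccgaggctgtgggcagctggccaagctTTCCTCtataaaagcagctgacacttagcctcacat
S100a9: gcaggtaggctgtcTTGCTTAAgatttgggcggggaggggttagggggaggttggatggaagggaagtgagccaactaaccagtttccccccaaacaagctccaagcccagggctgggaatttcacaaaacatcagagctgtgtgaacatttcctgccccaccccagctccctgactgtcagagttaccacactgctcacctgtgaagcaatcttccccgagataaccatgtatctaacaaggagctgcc
Stfa1: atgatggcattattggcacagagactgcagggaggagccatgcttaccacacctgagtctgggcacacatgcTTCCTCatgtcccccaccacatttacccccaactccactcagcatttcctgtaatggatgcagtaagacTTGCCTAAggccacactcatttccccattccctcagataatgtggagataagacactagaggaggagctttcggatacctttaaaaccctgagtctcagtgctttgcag
Cstdc5: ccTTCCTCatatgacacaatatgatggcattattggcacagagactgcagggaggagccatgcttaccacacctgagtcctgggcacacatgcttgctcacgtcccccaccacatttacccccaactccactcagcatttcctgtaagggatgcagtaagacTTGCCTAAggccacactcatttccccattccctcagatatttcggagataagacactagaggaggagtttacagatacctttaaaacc
Stfa2: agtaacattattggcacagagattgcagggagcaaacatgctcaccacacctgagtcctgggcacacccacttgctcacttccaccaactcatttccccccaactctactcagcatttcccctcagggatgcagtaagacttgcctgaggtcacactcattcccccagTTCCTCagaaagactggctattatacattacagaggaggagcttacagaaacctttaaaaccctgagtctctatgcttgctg
Stfa3: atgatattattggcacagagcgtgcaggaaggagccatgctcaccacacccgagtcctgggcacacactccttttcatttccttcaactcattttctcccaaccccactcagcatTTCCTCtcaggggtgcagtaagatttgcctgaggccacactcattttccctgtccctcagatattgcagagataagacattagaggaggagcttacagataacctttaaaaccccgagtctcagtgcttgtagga

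All 10 members had an entry in the promoter table. Stfa1 and Cstdc5, on opposite strands of the cluster, carried the same C/EBP-type letters 109 to 102 and 88 to 81 bases before their starts. Over all 10 members TTGCNNAA was present in 5 (S100a9, Stfa1, Cstdc5, Ngp and Ltf), against 9.56% of 32851 promoters of the same length. GAGGAA was present in 7 (S100a8, Ltf and the 5 stefin genes), against 23.3% of promoters. In S100a8 a GAGGAA match at 36 to 31 bases abutted TATAAA at 30 to 25 bases, and S100a8 was the only member with TATAAA, a motif found in 12.4% of promoters. No member held TGANTCA, the AP-1 motif (6.75% of promoters), or TTCNNNGAA, a STAT motif (7.02%), in this window. No match of 1 motif overlapped another. Upstream windows of the stefin genes were 70.1% to 89.4% identical in pairwise global alignment (median 80.7% over 10 pairs, highest between Stfa2 and Stfa2l1), so their matches are not separate observations. The other 35 pairs of members were 46.7% to 53.6% identical. CpG dinucleotides were few, with 0 to 4 per window in the members (median 2) and a median of 6 over all promoters. Members of the stefin cluster are near copies, and whether a probe for 1 stefin also captured transcripts of another was not tested, because probe sequences were not used here.

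Each array compared Cy5-labelled sample with Cy3-labelled RNA of control 1, and values are log2(Cy5/Cy3), so that 0 means the level of control 1. Raw intensities are median pixel values in scanner units. Between 53.1% (control 2) and 63.4% (Ezh2-KO 4) of probes gave a Cy5 signal well above background, and the 75th percentile of signal to background in Cy5 was between 5.21 (control 2) and 16.6 (Ezh2-KO 4). The targeted genes followed the labels. Ezh1 was -4.55 ± 0.08 (SD, n = 4) in double-KO and -1.13 ± 0.20 in Ezh1-het, and the Ezh2 probe A_51_P248067 averaged 0.09 in control, against -3.32 (Ezh2-KO), -3.43 (Ezh1-het) and -3.09 (double-KO). The other 4 Ezh2 probes had group means between -0.45 and 0.29. All 17 nephron and stroma reference genes, among them Six2, Nphs1, Lrp2, Umod and Foxd1, passed the detection filter, set at 4 or more of the 16 arrays with a clear Cy5 signal. The arrays lie on 2 slides, replicates 1 and 2 of every genotype on slide 1 and replicates 3 and 4 on slide 2.

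On the loess ratio S100a9 differed most of the 10 genes between Ezh2-KO and control, whereas Cstdc5 and Stfa1 exceeded it on the scanner software's ratio. Its log2 ratios were -0.13, -0.66, -1.37 and 0.02 in controls 1 to 4 and 3.77, 1.60, 1.96 and 0.31 in Ezh2-KO 1 to 4. Every Ezh2-KO array thus lay above every control, yet Ezh2-KO 4 exceeded control 4 by little, and control 3 was not well above background. The difference of means was 2.44 (SE 0.78 from the spread of these 2 groups, n = 4 each), a 5.44-fold difference. In raw terms the Cy5 spot read 72 to 215 in controls and 526.5 to 5108 in Ezh2-KO over a Cy5 background of 65 to 73, while the Cy3 spot, always control 1 RNA, stayed at 84 to 115. S100a8, its partner, followed array by array at a lower level. It read -0.03, -0.07, -0.49 and 0.00 in controls and 3.27, 1.19, 1.70 and 0.29 in Ezh2-KO. The groups did not overlap and the means differed by 1.76 (SE 0.63), or 3.40-fold. Its Cy5 spot read 87 to 127 in controls and 240 to 1938 in Ezh2-KO.

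**Figure D1:**
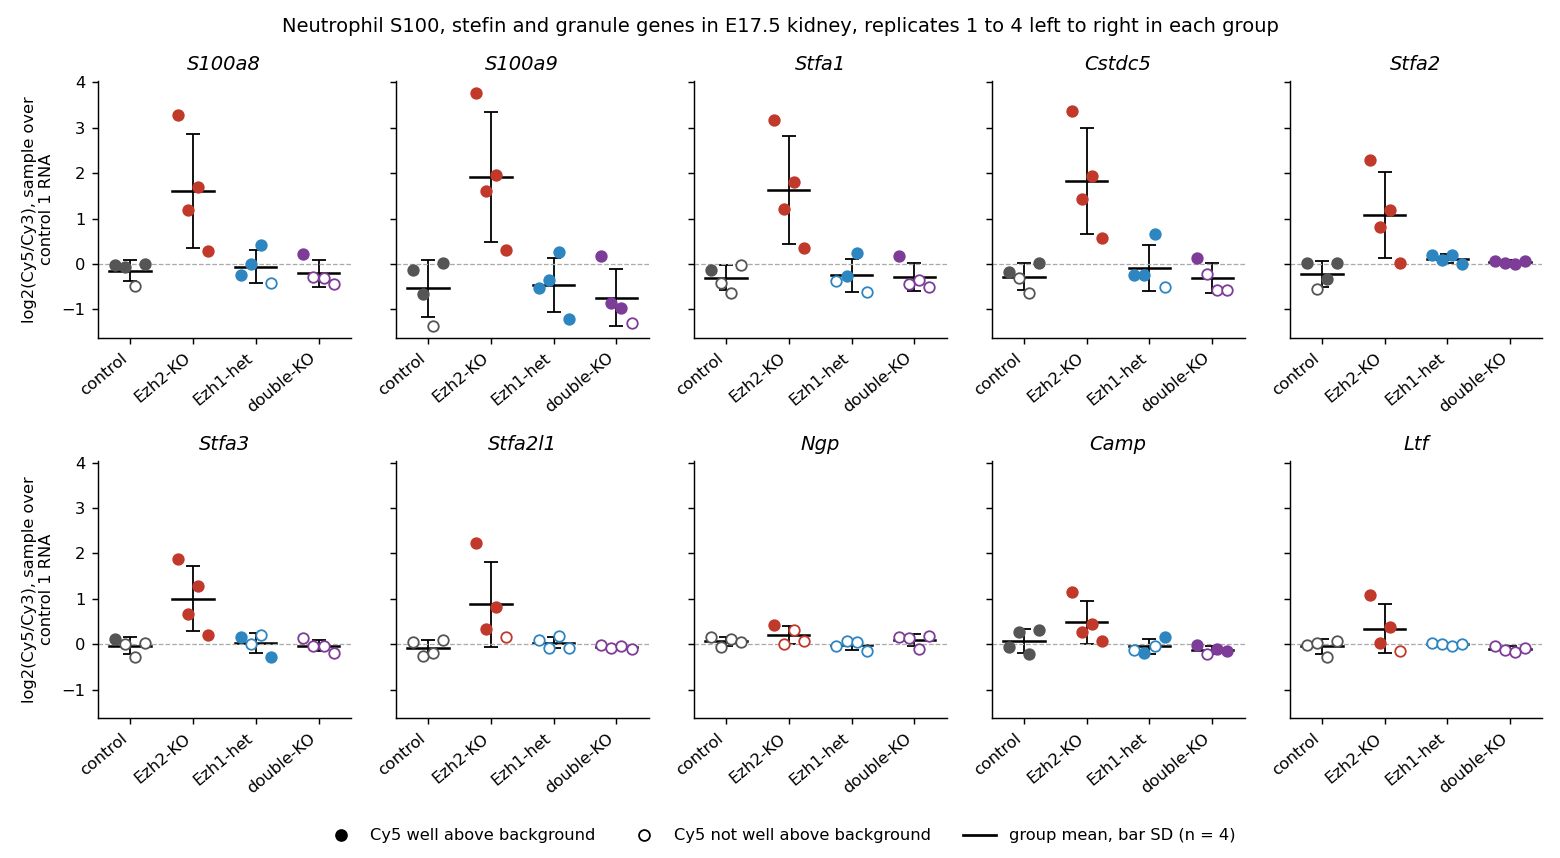
Log2(Cy5/Cy3) of the 10 genes (y axis) on each of 16 arrays, by genotype, with the group mean and SD (n = 4). Filled points were well above background in Cy5. The Ezh2-KO points spread widely, from 0.31 to 3.77 for S100a9, while the other groups stay between -1.37 and 0.66.

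Among the stefins, the cathepsin inhibitors, Cstdc5 and Stfa1 differed most. Cstdc5 read -0.17, -0.32, -0.65 and 0.02 in controls and 3.36, 1.42, 1.93 and 0.57 in Ezh2-KO, a difference of 2.10 (SE 0.60) or 4.29-fold. Stfa1 read -0.13, -0.42, -0.64 and -0.02 in controls and 3.18, 1.22, 1.80 and 0.34 in Ezh2-KO, a difference of 1.94 (SE 0.61) or 3.83-fold. For both genes all Ezh2-KO arrays exceeded all controls, and again array 1 stood highest and array 4 lowest. Stfa2 read 0.01, -0.55, -0.34 and 0.02 in controls and 2.29, 0.82, 1.18 and 0.01 in Ezh2-KO. Its groups overlapped, since Ezh2-KO 4 lay at the level of controls 1 and 4, and the difference was 1.29 (SE 0.49). Stfa3 read 0.12, 0.01, -0.29 and 0.03 in controls and 1.87, 0.66, 1.28 and 0.21 in Ezh2-KO, without overlap, a difference of 1.04 (SE 0.37). The Cy3 reference of Stfa3 was well above background on 3 of 16 arrays, so its ratio rests on a dim denominator. Stfa2l1 read 0.04, -0.27, -0.20 and 0.10 in controls and 2.22, 0.34, 0.81 and 0.16 in Ezh2-KO. It was well above background on Ezh2-KO 1, 2 and 3 and on no other array, and was at least 1.95-fold higher in Ezh2-KO, where the words refer to the background limit of the controls and not to sampling error.

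Of the 3 secondary granule genes, Camp alone gave a signal well above background outside Ezh2-KO. Camp, encoding cathelicidin, was well above background on all 4 controls and all 4 Ezh2-KO arrays. It read -0.07, 0.26, -0.22 and 0.32 in controls and 1.14, 0.26, 0.45 and 0.07 in Ezh2-KO, a difference of 0.41 (SE 0.27) with overlapping groups. Without Ezh2-KO 1 the Camp difference was 0.19. Ltf, encoding lactoferrin, read -0.01, 0.03, -0.28 and 0.06 in controls and 1.08, 0.03, 0.38 and -0.14 in Ezh2-KO. It was well above background on Ezh2-KO 1, 2 and 3 alone and at least 1.3-fold higher in that group, and its difference of 0.38 dropped to 0.14 without Ezh2-KO 1. Ngp read 0.42, 0.01, 0.32 and 0.07 in Ezh2-KO and -0.06 to 0.15 in controls. It was well above background on Ezh2-KO 1 only, so no fold is given, and its difference was 0.14 (SE 0.11), or 0.07 without Ezh2-KO 1.

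**Figure D2:**
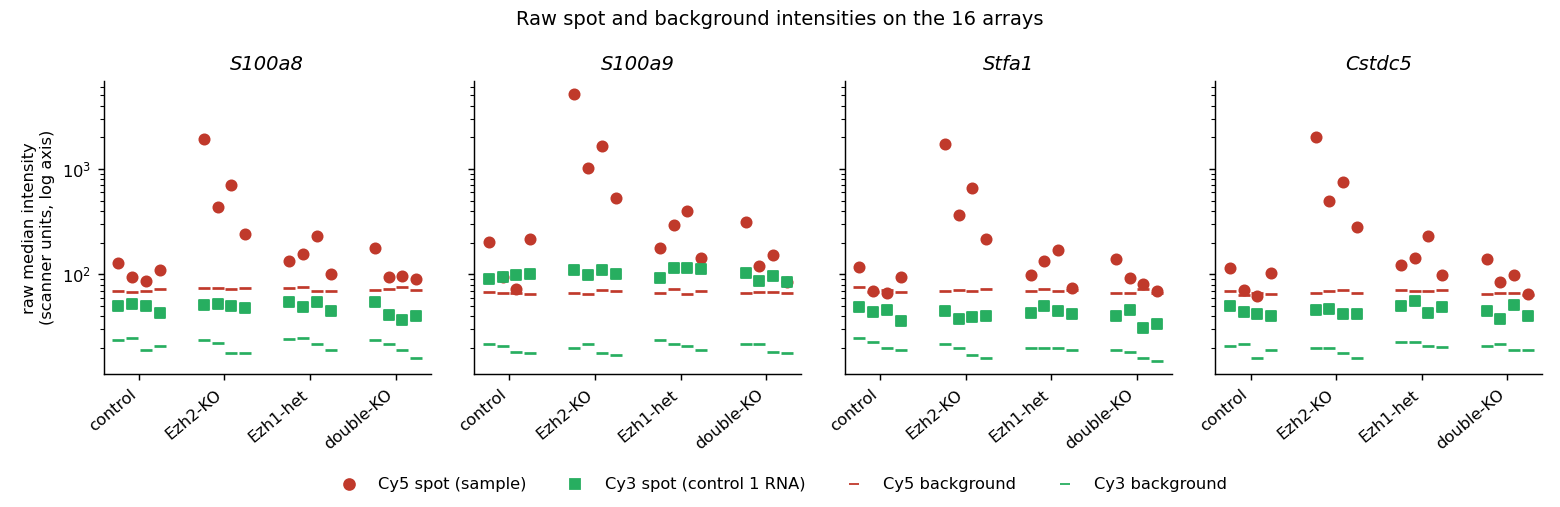
Raw median spot intensity of S100a8, S100a9, Stfa1 and Cstdc5 (y axis, scanner units, log axis) in Cy5 (sample, circles) and Cy3 (control 1 RNA, squares), with local background as dashes, for replicates 1 to 4 of each genotype. The Cy3 squares stay level, between 84 and 115 for S100a9, and the Ezh2-KO circles reach 5108.

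Taking the set as a whole, the Ezh2-KO mean was above the control mean for 10 of 10 genes, with differences of 0.14 to 2.44 (median 1.17), although Ngp turned to -0.03 when arrays were centred on their median in place of loess. Over all 15646 genes tested the median difference was 0.06. All 4 Ezh2-KO arrays lay above all 4 controls for 6 of the 10, against 7.91% of all genes tested. Among the 6 is Stfa2l1, which did not pass the detection filter, whereas the share is of genes that did. Stfa3 passed only with Ezh2-KO counted, which held 4 of its 7 arrays well above background. Of the 7 members that passed the detection filter, 6 had an adjusted p under 0.05 in the limma fit of all 16 arrays, where 2.4% of all genes were called higher, 0.677% lower and 3.08% in either direction. These counts carry no weight as evidence, because the genes were chosen on this contrast. The number called also rested on few arrays. It was 1 without control 2, 2 without control 3, 3 without control 4, 3 without Ezh2-KO 2 or 3, 5 without Ezh2-KO 1, and 0 when only the 2 groups were fitted, so that their own wide spread set the error. Every member had the higher mean in Ezh2-KO on slide 1 and on slide 2, with S100a9 differing by 3.08 and 1.81.

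**Figure D3:**
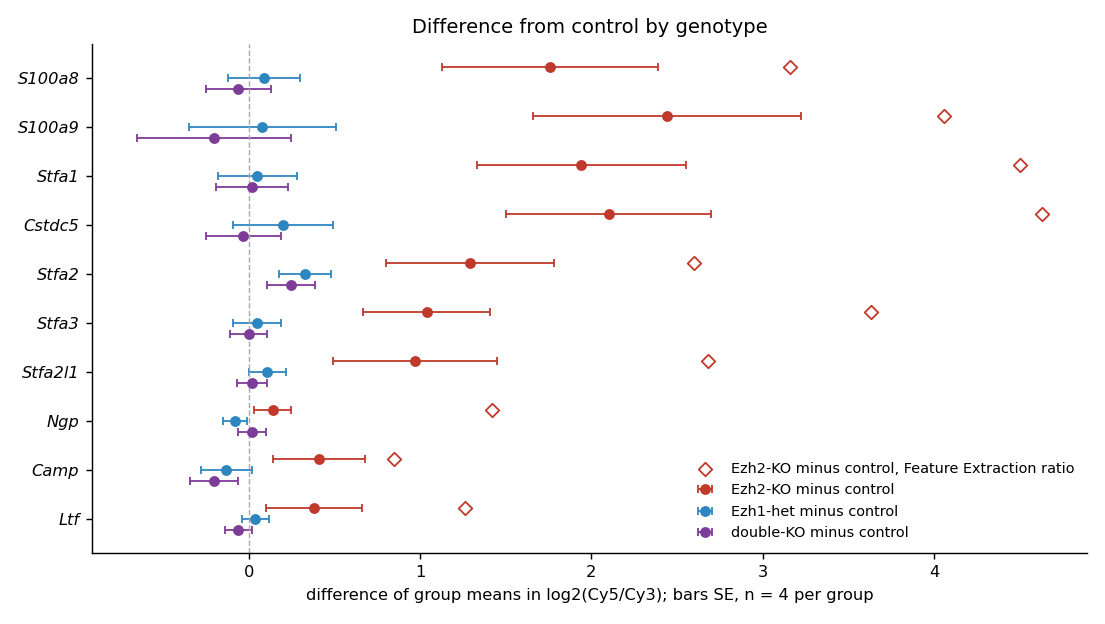
Difference of each genotype's mean from the control mean in log2(Cy5/Cy3) (x axis) for the 10 genes, with SE from the spread of the groups compared (n = 4 each). Diamonds give the Ezh2-KO difference on the scanner software's own ratio, which reaches 4.63 for Cstdc5. Ezh1-het and double-KO differences lie between -0.20 and 0.33.

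The size of these differences depended on how background was treated. An offset of 50 had been added to the corrected signals, which draws ratios of dim spots towards 0. On the deposited Feature Extraction log ratio, which carries no such offset, the Ezh2-KO difference was 4.63 for Cstdc5, 4.50 for Stfa1, 4.06 for S100a9, 3.63 for Stfa3 and 3.16 for S100a8. No fold is given, because Stfa1 and Stfa3 were well above background on 1 of 4 controls, Cstdc5 on 2, and S100a8 and S100a9 on 3, and without an offset such dim spots gave ratios as low as -4.98 (S100a9 on control 3). Stfa2l1 reached 2.68, Stfa2 2.60, Ngp 1.42, Ltf 1.26 and Camp 0.85 on that scale. Camp, the granule gene that passed the filter, stood below the 6 S100 and stefin genes that did on either scale.

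The 4 Ezh2-KO arrays were far apart, and in the same order for nearly every gene. Arrays ranked 1, 3, 2, 4 from high to low in 9 of 10 members and 1, 3, 4, 2 in Ngp. Ezh2-KO 1 was the highest of all 16 arrays for 10 of 10 members. Leaving it out, the differences were 1.82 for S100a9, 1.59 for Cstdc5, 1.42 for Stfa1, 1.21 for S100a8, 0.88 for Stfa2, 0.75 for Stfa3 and 0.52 for Stfa2l1. Smaller orders of the same kind ran through the other genotypes, where all values were low. Control 4 was highest among controls in 8 members and control 3 lowest in 7, Ezh1-het 3 was highest in 7 and Ezh1-het 4 lowest in 7, and double-KO 1 was highest in 8. Pearson correlations between the 7 filtered members were 0.806 to 0.994 over 16 arrays (median 0.952 of 21 pairs) and 0.453 to 0.989 (median 0.88) without Ezh2-KO 1. Over the 12 arrays outside Ezh2-KO they ran from -0.323 to 0.951 (median 0.448). The arrays share the Cy3 RNA and 2 slides, and these correlations are descriptions.

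In kidneys that had lost Ezh1 alleles besides Ezh2, the members lay near the control level. Many spots were dim. In double-KO, Stfa2 was well above background on 4 arrays, S100a9 and Camp on 3, and S100a8, Stfa1 and Cstdc5 on 1. Stfa3, Stfa2l1, Ngp and Ltf were so on 0. In Ezh1-het the count ran from 0 (Stfa2l1, Ngp and Ltf) to 4 (S100a9 and Stfa2). In controls it was 0 for the same genes, 1 for Stfa1 and Stfa3, 2 for Cstdc5 and 3 or 4 for the others. Since the offset draws dim ratios towards 0, equality and a decrease cannot be told apart for such genes. The comparisons of the 3 genotypes share the 4 control arrays. In Ezh1-het, S100a9 read -0.53, -0.36, 0.26 and -1.21, which overlapped the controls, and S100a8 read -0.24, -0.01, 0.42 and -0.41. In double-KO, S100a9 read 0.18, -0.87, -0.97 and -1.29 and S100a8 0.22, -0.29, -0.32 and -0.45. Only 1 array in each of these groups lay above all controls, for either gene. Cstdc5 was 0.66 on Ezh1-het 3 and 0.13 on double-KO 1, and -0.23 or lower on the other arrays of both groups. Over the 10 members the difference from control was -0.13 to 0.33 in Ezh1-het (median 0.06) and -0.20 to 0.25 in double-KO (median -0.01). The highest in each was Stfa2, with 0.33 (SE 0.15) and 0.25 (SE 0.14). Of the 7 filtered members 0 were called in either group, against 7.81% of all genes in Ezh1-het (5.91% higher, 1.9% lower) and 4.62% in double-KO (3.71% higher, 0.914% lower), and 0 had an unadjusted p under 0.05, against 25.4% and 17.1% of all genes. The fit shares 1 error over the 4 genotypes, so the spread of Ezh2-KO widens it for these genes, to an SE of 0.31 for Stfa2 in both comparisons, and these counts of 0 say little. No member had all 4 arrays above all controls in either group, where 12.6% of genes did in Ezh1-het and 6.35% in double-KO. Array centring on the median gave -0.43 to 0.42 in Ezh1-het and -0.33 to 0.23 in double-KO, where the median of all genes was 0.44 and 0.38. On the Feature Extraction ratio the differences spread more widely. They ran from -0.67 (Ltf) to 1.31 (Cstdc5) in Ezh1-het and from -0.94 (Ltf) to 1.01 (Stfa2) in double-KO. The medians of all genes were 0.06 and 0.02 on that ratio. Set against Ezh2-KO directly on the loess ratio, all 10 members had lower means in Ezh1-het (differences of -2.37 to -0.22) and in double-KO (-2.64 to -0.12). In whole kidneys, fewer cells of a type and less RNA per cell cannot be told apart.

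Other neutrophil transcripts were measured beside the members. Of 45 further neutrophil genes 43 had a probe, 25 passed the filter and 10 were not well above background on any array, namely Mmp9, Mmp25, Cxcr2, Cd177, Trem3, Ear1, Clec4d, Clec4e, Clec5a and Fcnb. Ly6g and Olfm4 had no named probe, and Lyz2 was well above background on 2 arrays. In Ezh2-KO 0 of the 25 passed the threshold in limma, against 3.08% of all genes tested, and 7 had an unadjusted p under 0.05, against 21.3% of all genes. Above control were 16 of 25 (median 0.09, against 0.06 over all genes tested). The count was 4 with median centring, 1 with array weights and 1 without Ezh2-KO 4. Retnlg, 1 of the 25, differed by 0.48 and is described with the genes of similar pattern. Lcn2, encoding the iron-siderophore binder lipocalin 2, read 0.77, 0.37, 0.30 and -0.04 in Ezh2-KO and -0.26 to 0.25 in controls, a difference of 0.33 (SE 0.15, limma adjusted p = 0.223). Mpo, the peroxidase of primary granules, differed by 0.09 (SE 0.10, adjusted p = 0.61) and Mmp8, a granule collagenase, by 0.12 (SE 0.10, adjusted p = 0.476). Mpo was well above background on 1 control and 2 Ezh2-KO arrays and Mmp8 on 2 controls and 4 Ezh2-KO arrays, so these differences say little. Elane, neutrophil elastase, had a difference of -0.25 (SE 0.08, adjusted p = 0.109), Csf3r, the G-CSF receptor, of -0.29 (SE 0.14, adjusted p = 0.251), and Itgam, the integrin CD11b, of -0.34 (SE 0.14, adjusted p = 0.166). Elane, Csf3r and Itgam were well above background on all 16 arrays, whereas Cxcr2, Mmp9, Cd177 and Fcnb were so on none. Whether the signal of these bright probes comes from neutrophils was not tested. The mean log2 ratio of the 25 genes ran from -0.09 to 0.17 in controls. It read 0.20, 0.05, 0.14 and 0.04 on Ezh2-KO 1 to 4, which ranks these arrays 1, 3, 2, 4 as most members did. The summed Cy5 level of the 25 genes ran from 15.99 to 16.55 (log2) in controls and from 15.77 to 16.08 in Ezh2-KO. That sum was dominated by the Csf3r probe, whose raw Cy5 spot read 48140 on control 2 and more on the other controls. In the other genotypes single genes of this list moved. Padi4, the enzyme that citrullinates histones, rose in Ezh1-het (0.77, SE 0.16, adjusted p = 0.00895) and double-KO (1.26, SE 0.16, adjusted p = 0.000146), with all 4 arrays of each above all controls. Since none of the controls gave a signal well above background, these are at least 1.71-fold and at least 2.39-fold. Elane fell in Ezh1-het by 0.36 (SE 0.08, adjusted p = 0.0173), which was no longer called when arrays were centred on their median (-0.05) or when leaving out control 2, Ezh1-het 2 or Ezh1-het 4 (-0.35 to -0.30). Ncf1, a subunit of the phagocyte oxidase, fell by 0.31 (SE 0.09, adjusted p = 0.0432) and was at least 1.22-fold lower, being not well above background on any Ezh1-het array, a call lost without control 2, control 4 or Ezh1-het 1, 2 or 4 (-0.31 to -0.26).

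Among transcription factors that drive myeloid differentiation, Cebpb alone passed the test in all 3 mutant genotypes. Cebpb rose by 0.67 in Ezh2-KO (SE 0.13, limma adjusted p = 0.0104), 0.79 in Ezh1-het (adjusted p = 0.002) and 0.70 in double-KO (adjusted p = 0.0034). It read -0.18, -0.25, -0.69 and 0.12 in controls and 0.28, 0.38, 0.39 and 0.64 in Ezh2-KO, lowest on Ezh2-KO 1 among the 4 mutants. Of the 12 listed factors 9 were tested, and 3 rose in Ezh2-KO (Cebpb, Nfil3 and Irf8), 3 in Ezh1-het (Cebpa, Cebpb and Cebpd) and 2 in double-KO (Cebpb and Irf8), with 0 lower in any. Of all genes tested, 2.4%, 5.91% and 3.71% were called higher in Ezh2-KO, Ezh1-het and double-KO. The median of the 9 was 0.43, 0.34 and 0.35 in the 3 comparisons, against 0.06, 0.05 and 0.01 over all genes tested. Nfil3 rose by 0.46 in Ezh2-KO (adjusted p = 0.0187), a call lost without control 4 or Ezh2-KO 2 (0.40 and 0.43). Irf8, a factor of the monocyte branch, rose by 0.46 in Ezh2-KO (adjusted p = 0.0449), a call lost without any 1 of controls 1 to 3 or Ezh2-KO 1, 2 or 4 (0.38 to 0.51), and by 0.56 in double-KO (adjusted p = 0.00959). Cebpa rose by 0.40 in Ezh1-het (adjusted p = 0.0333), a call lost without control 3, control 4 or any 1 Ezh1-het array (0.35 to 0.40), and Cebpd by 0.75 (adjusted p = 0.025), lost without control 2, control 3, Ezh1-het 2 or Ezh1-het 3 (0.63 to 0.72). Fitting Ezh2-KO and control alone left no call for Cebpb, Nfil3 or Irf8.

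Relatives of the members in the S100 and cystatin families were counted against the same shares of all genes. Of 15 other S100 genes 9 were tested and 1 rose in Ezh2-KO, where 3.08% of all genes were called. That was S100a11, by 0.30 (SE 0.08, limma adjusted p = 0.0498), a call lost without control 1, 2 or 4 or Ezh2-KO 1, 2 or 4 (0.24 to 0.33). In Ezh1-het S100a11 and S100a16 rose by 0.32 each (adjusted p = 0.0253 and 0.0231), and the call of either was lost without control 2, Ezh1-het 2 or Ezh1-het 4, that of S100a11 also without control 4 and that of S100a16 also without control 3 (0.28 to 0.31). Of 21 other cystatins and cathepsins, the latter the proteases that stefins inhibit, 14 were tested and 0 were called in Ezh2-KO (2 at an unadjusted p under 0.05, against 21.3% of all genes). Cathepsins Ctsc and Ctsl rose in Ezh1-het by 0.46 (adjusted p = 0.0347) and 0.60 (adjusted p = 0.0363), and both calls were lost without control 2, control 3 or any 1 Ezh1-het array (0.39 to 0.62). Ctsc activates the serine proteases of neutrophil granules. Of 20 receptors and attractants 10 were tested, Ager, Cxcl1 and Csf3 among them, and 0 were called in any comparison. At an unadjusted p under 0.05 there were 0, 4 and 2 in Ezh2-KO, Ezh1-het and double-KO. Tlr4, not well above background on any array, and Cxcl2, well above it on 1 array, were not tested. Of 16 other antimicrobial granule genes 6 were tested and 0 were called in any comparison (3, 1 and 1 at an unadjusted p under 0.05).

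**Figure D4:**
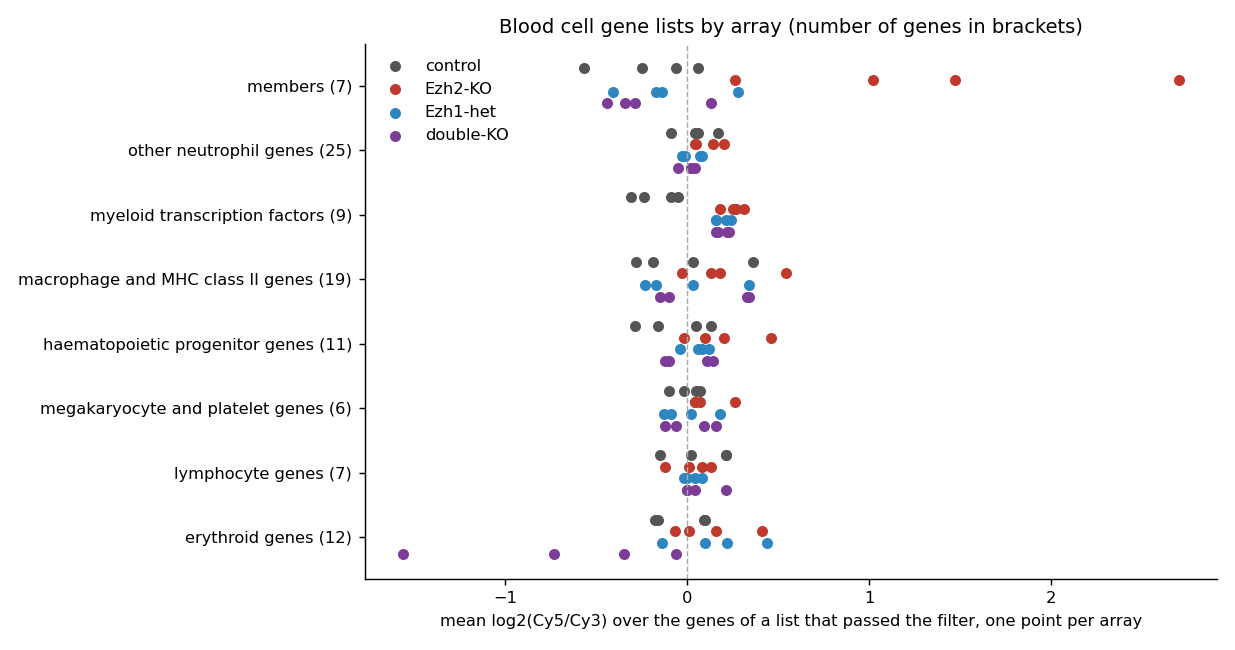
Mean log2(Cy5/Cy3) (x axis) over the filtered genes of 8 lists (y axis), 1 point per array, coloured by genotype. The members reach 2.70 on Ezh2-KO 1, whereas the other blood lists stay between -0.31 and 0.54 apart from the erythroid list, which drops to -1.56 on double-KO 4.

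Markers of other blood cells were examined beside the members. The mean of 19 macrophage and MHC class II genes was -0.03, 0.13, 0.54 and 0.18 on Ezh2-KO 1 to 4, lowest on the array where the members were highest, and -0.28 to 0.36 in controls. The mean of 11 haematopoietic progenitor genes was -0.02, 0.10, 0.46 and 0.20 on the same arrays. Lymphocyte genes (7 tested) averaged 0.13, 0.08, 0.01 and -0.12 on Ezh2-KO 1 to 4, highest on Ezh2-KO 1, and -0.15 to 0.21 in controls. Platelet genes (6 tested) averaged 0.04 to 0.26 in Ezh2-KO and -0.10 to 0.07 in controls. Ptprc, the pan-leukocyte antigen CD45, differed by 0.25 in Ezh2-KO (SE 0.18, limma adjusted p = 0.426), Adgre1 (F4/80) by 0.42 (adjusted p = 0.402), Csf1r by 0.10 (adjusted p = 0.778) and Pf4 by 0.58 (adjusted p = 0.327). Cd3e read -0.33 (adjusted p = 0.168) and Cd79a -0.07 (adjusted p = 0.581). Itga2b was not well above background on any array. Cd74 and H2-Eb1, the MHC class II invariant chain and a class II chain, fell in all 3 genotypes, H2-Eb1 by 0.59 in Ezh2-KO (SE 0.12, adjusted p = 0.0127), 0.69 in Ezh1-het (adjusted p = 0.00242) and 0.74 in double-KO (adjusted p = 0.000877), calls lost with median centring, under which nearly all called genes are higher. Cd74 fell by 0.50, 0.47 and 0.51 (adjusted p = 0.033, 0.0286 and 0.0193). Its call was lost without 1 of several arrays, namely control 3, control 4 and Ezh2-KO 2, 3 or 4 in the first comparison (-0.54 to -0.39), control 3, control 4 and Ezh1-het 1, 2 or 4 in the second (-0.50 to -0.36) and control 4, double-KO 1 or double-KO 3 in the last (-0.49 to -0.40). Erythroid genes (12 tested) averaged -0.07 to 0.41 in Ezh2-KO and -0.18 to 0.10 in controls, but -0.06, -0.73, -0.35 and -1.56 on double-KO 1 to 4. Hba-a1, an alpha globin, was -1.39 in double-KO (SE 0.47, adjusted p = 0.118) and Alas2, of haem synthesis, -0.65 (adjusted p = 0.195). The part of blood content in the member values was not tested.

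Genes whose pattern over the arrays was most like the members' were ranked by Pearson r with the mean z-score of the 7 filtered members, and 20 of 15639 genes exceeded r = 0.8. The top 10 were Retnlg (0.946), Csta2 (0.937), Rtp4 (0.921), Oas1a (0.906), Oas1f (0.903), Oas2 (0.865), Oasl2 (0.864), Tnnt1 (0.857), Ccdc80 (0.847) and Oxct2b (0.834). They were chosen for this likeness, so their values carry no test. Retnlg, a resistin-like gene of neutrophils, read 1.00, 0.34, 0.48 and -0.02 on Ezh2-KO 1 to 4 and -0.12 to 0.11 in controls, and was well above background on 3 Ezh2-KO arrays and on 1 other array. Csta2, a stefin gene of the chromosome 16 cluster described above, read 1.63, 0.74, 0.75 and 0.08 in Ezh2-KO and -0.08 to 0.09 in controls. It was well above background on all 4 Ezh2-KO arrays and on 1 control.

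The 5 others that followed in rank are known interferon-induced genes. Oas1a, Oas1f, Oas2 and Oasl2 belong to the oligoadenylate synthetase family, which senses double-stranded RNA. Oas1a read 1.90, 1.11, 0.89 and 0.44 in Ezh2-KO and 0.00, 0.02, -0.75 and 0.60 in controls, so the groups overlapped at control 4. Oas1f read 1.42, 0.89, 0.48 and 0.36 in Ezh2-KO and -0.14 to 0.50 in controls, with control 4 above Ezh2-KO 3 and 4. Oas2 read 1.04, 0.72, 0.29 and 0.15 against -0.23 to 0.06, without overlap. Oasl2 read 1.25, 0.76, 0.42 and 0.17 against 0.00 to 0.34, with controls 2 and 4 above Ezh2-KO 4. Rtp4, a chaperone of G-protein-coupled receptors, read 0.93, 0.57, 0.40 and 0.07 against -0.45 to -0.09, without overlap. From high to low these 5 placed the Ezh2-KO arrays in the order 1, 2, 3, 4, whereas 9 of 10 members placed them in the order 1, 3, 2, 4. The ranking leaned on Ezh2-KO 1. Without it 4 of the 10 stayed in the top 10 (Rtp4, Retnlg, Csta2 and Oas1a), and over the 12 arrays outside Ezh2-KO 1 did, Oas1a, while r of Csta2 was -0.0413.

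**Figure D5:**
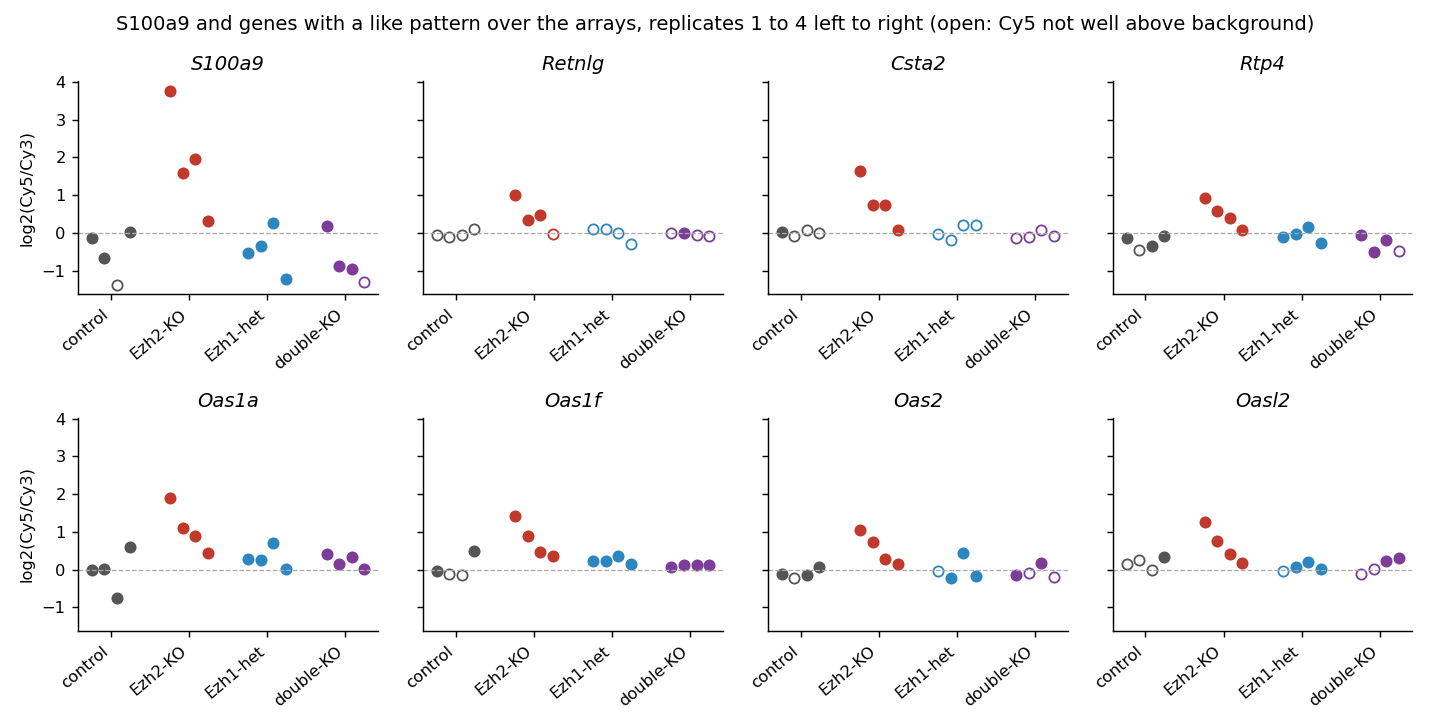
Log2(Cy5/Cy3) (y axis) of S100a9 and 7 of the 10 genes with the most similar pattern, by genotype, replicates 1 to 4 from left to right, open where Cy5 was not well above background. Retnlg and Csta2 reach 0.34 or more on Ezh2-KO 1, 2 and 3 only, and the Oas genes are highest on Ezh2-KO 1 and lowest on Ezh2-KO 4 within that group.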

How the data were processed

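Per the labels, Cy5 carried the sample and Cy3 the RNA of control 1 on each of 16 two-colour Agilent arrays, with no dye swap, and control 1 was hybridised with itself. Raw median spot and background intensity was read from the deposited scanner output, made, per the file headers, with Agilent Feature Extraction 10.7.3.1, a version the submitters' processing notes also give. The deposited log10 ratio is processed Cy5 over processed Cy3, background-subtracted and dye-normalised by that software. The authors' value table matched this log10 ratio to within 0.005 in every column, which settles its scale and direction, and each column's median was 0.

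Median intensities were corrected by normexp (offset 50) and normalised by loess within arrays in limma 3.58.1 (R 4.3.3), with control and outlier-flagged spots at weight 0. Spots of a probe were averaged, probes with a Cy5 signal well above background on 4 or more arrays were kept (34731 of 56605), and the brightest probe stood for a gene (15646 genes). Symbols came from RefSeq (GRCm38.p6) by accession, giving 32994 probes a symbol and 23611 none. Groups were compared with limma's lmFit and eBayes over all 16 arrays, two-sided, with Benjamini-Hochberg adjustment over all genes tested (threshold 0.05), and the steps were tested on simulated data. For member genes the difference of group means is given with the SE from those 2 groups, without a test. "At least" sets the bright group's Cy5 level (loess, then Aquantile scaling) against the higher of the dim group's own level and the array's lowest level well above background, or gives the ratio's fold where that is smaller, and is open to dye bias. No spot was saturated, and the number of arrays and the signal over background limit precision.

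Members and lists were chosen with earlier results of these data known. The genes named are all members, every list gene past the threshold in a comparison with control, fixed blood cell markers, the 10 genes of most similar pattern and the targeted genes. Promoter windows leave out the 50 bases after the start. Alignments used Biopython 1.88. No probe coordinates are given, since the grid names build mm9. Alternatives were the scanner software's ratio, median centring, other detection filters, the mean of a gene's probes, array weights, robust moderation, slide and replicate blocks, each slide alone, the compared groups alone and leaving out each array. Some results that the rule names are not reported here.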

Additional observations from a re-analysis of the deposited data

Results flagged for a closer look

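S100a8 on control 3, at -0.49, stood apart from the other 3 controls, which read -0.07 to 0.00, and its spot was not well above background on that array. Ngp on double-KO 3, at -0.10, stood apart from the other 3 double-KO arrays (0.13 to 0.17), and Ngp was not well above background on any of the 4. Each was picked out because its gap to the nearest array of its genotype was a large share of that genotype's range. Of 40 sets of 4 arrays examined in this way 2 were picked out, and chance gives about 1 in 20.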

How the results depend on the processing

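For Ezh2-KO, all 10 members kept a mean above control under every alternative run, except Ngp at -0.03 with median centring. That centring moved the median of all genes to 0.41, 0.44 and 0.38 in Ezh2-KO, Ezh1-het and double-KO, from 0.06, 0.05 and 0.01, and made 97.5%, 96.4% and 96.8% of called genes higher, from 78.0%, 75.7% and 80.2%. Relative to that shift only the 6 called members, with Stfa2l1 and Camp, stayed above the median gene. It gave 6839, 8037 and 5364 genes called (482, 1222 and 723 with loess) and 4, 6 and 5 genes of the neutrophil list (0, 3 and 1). With array weights the counts were 881, 2217 and 1407 genes and 1, 5 and 3 of the list. With only the compared groups fitted, 59 genes and 0 members were called in Ezh2-KO and 442 genes in double-KO. A slide block gave 5 list genes in Ezh1-het. Slide 1 alone gave 162, 138 and 229 genes, 2 members in Ezh2-KO and 0 list genes in Ezh1-het. Slide 2 alone gave 6, 37 and 113 genes, 0 members in Ezh2-KO and 0 list genes in Ezh1-het and double-KO. Without controls 2 and 3 together there were 78, 235 and 450 genes, 0 members in Ezh2-KO and 0 list genes in Ezh1-het. Smaller fits hold fewer arrays, and otherwise the cause was not tested. No other alternative moved these counts by more than 1.5 times, and members called in Ezh1-het and double-KO stayed at 0 throughout.

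Leaving out 1 array at a time gave 202 to 515 genes called in Ezh2-KO (204 without control 2, 202 without Ezh2-KO 2, 265 without Ezh2-KO 4), 487 to 1189 in Ezh1-het (652 without control 2, 755 without control 3, 550, 795 and 487 without Ezh1-het 2, 3 and 4) and 441 to 922 in double-KO (441 without double-KO 3). Members called in Ezh2-KO ran from 1 to 6. Genes of the neutrophil list ran from 0 to 1 (Ezh2-KO), from 1 to 5 (Ezh1-het, with 5 without control 1 and 1 without control 2, Ezh1-het 2 or Ezh1-het 4) and from 1 to 2 (double-KO, with 2 without control 3 or double-KO 2).

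No pairing of the arrays by replicate number was seen, though correlations spread this widely cannot exclude it. Deviations of same-numbered arrays correlated above 0.1 in 8 of 24 pairs (range -0.478 to 0.514). Differently numbered arrays of the same slide did so in 7 of 24 pairs, and arrays of different slides in 18 of 48. With the replicate block 462, 1125 and 740 genes were called, with 6, 0 and 0 members and 0, 2 and 1 list genes.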

Other observations

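Lists of other cell types held further genes that passed the limma threshold. In Ezh2-KO the B cell receptor component Cd79b rose by 0.55 (SE 0.11, adjusted p = 0.0113), the platelet integrin Itgb3 by 0.61 (SE 0.09, adjusted p = 0.0019) and the progenitor factor Meis1 by 0.80 (SE 0.17, adjusted p = 0.0173), the last no longer called without Ezh2-KO 2 (0.79). These 3 genes also rose in Ezh1-het (0.51, 0.45 and 0.56) and in double-KO (0.58, 0.39 and 0.86). Meis1 lost its Ezh1-het call without any 1 of controls 1 to 3 or Ezh1-het 2, 3 or 4 (0.39 to 0.59), and Itgb3 its double-KO call without double-KO 3 (0.34). Cd14, the lipopolysaccharide co-receptor, rose in Ezh1-het (0.41, adjusted p = 0.0102) and double-KO (0.42, adjusted p = 0.00891). Gata2, a progenitor factor, rose in Ezh1-het (0.59, adjusted p = 0.0232), not called without control 2, control 3, Ezh1-het 1 or Ezh1-het 2 (0.54 to 0.58), and in double-KO (0.79, adjusted p = 0.00348). Tal1, another, rose in double-KO (0.49, adjusted p = 0.0232), at least 1.41-fold because its signal was near background in every control, and was not called without control 2, double-KO 1 or double-KO 3 (0.40 to 0.47). Of 12 erythroid genes tested 0 were called by limma in any comparison, with 1, 1 and 6 at an unadjusted p under 0.05 in Ezh2-KO, Ezh1-het and double-KO, respectively.

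Outside blood, Cited1, a nephron progenitor gene, fell by 0.69 in Ezh2-KO (adjusted p = 0.0104), by 0.79 in Ezh1-het (adjusted p = 0.00254) and by 0.90 in double-KO (adjusted p = 0.000586), but centring arrays on their median left no call (-0.15, -0.18 and -0.31). Ren1, encoding renin, rose in Ezh2-KO by 0.70 (adjusted p = 0.0041). The podocyte genes Nphs1 and Podxl rose in Ezh1-het by 0.94 each (adjusted p = 0.0139 and 0.011), and Nphs1 was not called without Ezh1-het 4 (0.89). Foxd1, a stromal factor, rose in double-KO by 0.72 (adjusted p = 0.045), not called without control 2, control 4 or double-KO 1, 3 or 4 (0.51 to 0.76). Of 11 liver genes tested Ttr rose in Ezh1-het, by 2.75 (SE 0.45, adjusted p = 0.00219). Of 13 epidermal genes tested, a list included because squamous cells also express S100a8, S100a9 and stefins, Sfn rose in Ezh1-het by 0.78 (SE 0.20, adjusted p = 0.0312), not called without control 2, control 3 or Ezh1-het 1, 2 or 4 (0.64 to 0.78). In Ezh2-KO 0 of the 13 were called by limma (3 at an unadjusted p under 0.05), and the list mean was 0.06 to 0.13 there and 0.06 to 0.11 in controls.

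Over the 12 arrays outside Ezh2-KO, where the members were low, the 10 genes of most similar pattern were Rgl1 (r = 0.896), Irf2bpl (0.849), Rsph3a (0.849), C5ar2 (0.848), Anxa5 (0.843), Cd52 (0.838), Gm4788 (0.838), Oas1a (0.836), Gmfg (0.834) and Slco2b1 (0.83). This ranking was chosen after seeing the data.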
